A study of Bos grunniens with 6 samples.

Results

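A set of 115 genes, of 20953 in the expression table, was nearly silent in the testis of juvenile yaks and clearly present in every sexually mature yak. The members were chosen by their expression alone, as genes below 0.1 FPKM in all 3 juvenile libraries and at 10 FPKM or more in all 3 mature libraries. FPKM counts sequenced fragments per kilobase of transcript and corrects for library depth. Testicular parenchyma was taken from 3 male yaks (*Bos grunniens*) of 6 months, before sexual maturity (Y6M), and from 3 male yaks of 30 months, after sexual maturity (Y30M). Polyadenylated RNA was fragmented and sequenced without antibody (input, 6 libraries, used here for expression) and after precipitation with an antibody against *N*6-methyladenosine (m6A). The levels of the members at the 2 ages are a description, because those values selected them.

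Before puberty, the seminiferous tubules hold spermatogonia and Sertoli cells. After puberty, spermatogonia enter meiosis and become spermatocytes, then round spermatids, and the spermatids build an acrosome, condense their chromatin and grow a flagellum. Many genes of these late steps are transcribed in no other tissue or almost none. In bulk tissue, fewer cells of a type and less RNA per cell cannot be told apart.

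The 115 members were 1.83% of the 6273 genes that reached 10 FPKM in all Y30M libraries. They were also 2.67% of the 4305 genes that stayed below 0.1 FPKM in all Y6M libraries. Of those 4305 genes, 2824 (65.6%) were below 0.1 FPKM in all Y30M libraries too, and 327 reached 1 FPKM in each of them. The opposite pattern, 10 FPKM or more in all Y6M libraries and below 0.1 in all Y30M libraries, was found for 1 gene. Without Y6M replicate 1 the same limits gave 188 genes, and without 1 of the other libraries 118 to 154. Leaving out a library removes a condition of the rule, so all 115 stay and the count cannot fall.

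In the Y30M libraries the median member stood at 26.0 FPKM in replicate 1, 46.8 FPKM in replicate 2 and 39.4 FPKM in replicate 3. The lowest member of each library was at 10.1, 10.1 and 10.3 FPKM, and the highest at 220, 526 and 250 FPKM. In the Y6M libraries the median member stood at 0.0323, 0.0256 and 0 FPKM, and the highest values were 0.0990, 0.0887 and 0.0937 FPKM. All Y30M values of all members were therefore above all Y6M values, as the rule requires. Members were at 0 FPKM in 35, 47 and 86 cases in Y6M replicates 1, 2 and 3. Replicate 3, with the most zeros, was also the shallowest input library, at a relative depth of 0.752 when that of Y30M replicate 1 is set to 1. Y6M replicates 1 and 2 stood at 0.911 and 1.03. The summed FPKM of the members, which is corrected for depth, was also lowest in replicate 3, at 4.30, 3.07 and 1.04 in Y6M replicates 1, 2 and 3. The part of depth in the zeros was not tested.

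**Figure D1:**
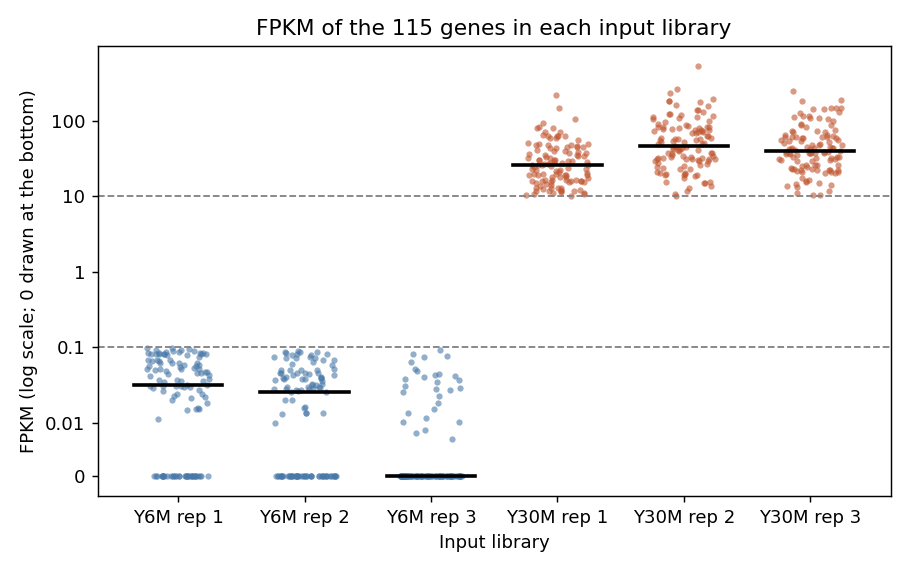
FPKM of each of the 115 genes (points) in each of the 6 input libraries, on a log scale with 0 drawn at the bottom; black bars are medians over genes and dashed lines are the limits of 0.1 and 10 FPKM that chose the genes. The Y30M medians lie at 26.0, 46.8 and 39.4 FPKM, and 86 genes are at 0 in Y6M replicate 3.

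The depth behind these values was read from the FPKM steps, since the low values of a gene are whole multiples of what 1 fragment is worth. The members drew 228, 210 and 56 fragments in total in Y6M replicates 1, 2 and 3, against 202992, 412505 and 319711 in the Y30M replicates. Over the 3 Y6M libraries together, a member had a median of 3 fragments and at most 24. There were 16 members with no fragment in any Y6M library, 54 with 1 to 3 fragments and 45 with more than 3. A member at 0 can hide up to 3 fragments over the 3 libraries, so its silence in Y6M is known only to that depth. Over the Y30M libraries together the median member had 5349 fragments, with a range of 689 to 53603. These numbers cover counting error only, and are the smallest whole numbers that the FPKM values allow.

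Per unit of depth, the ratio of Y30M to Y6M fragments had a median of 1612 over the 99 members with a Y6M fragment. It reached 11264 at the highest. With the 16 members without a Y6M fragment set to 3 fragments over the group, the median over all 115 was 1507. For those 16 the ratio is a lower bound, from at least 199-fold to at least 8440-fold. Together the members made up 0.000627, 0.000449 and 0.000147% of all FPKM in Y6M replicates 1, 2 and 3. In the Y30M replicates they made up 0.660, 1.25 and 0.995%.

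Over the Y30M animals, the mean of a member ranged from 12.5 to 307 FPKM with a median of 40.9 FPKM. A mean over 100 FPKM was reached by 12 members, 31 lay between 50 and 100 FPKM, 56 between 20 and 50 FPKM, and 16 below 20 FPKM. The 10 highest members held 25.0% of the summed means. The highest was ENSBGRG00000016964, for which no symbol was at hand, with 0 FPKM in all Y6M libraries and 146, 526 and 250 FPKM in Y30M replicates 1, 2 and 3. Its FPKM rests on a very short model of 87 bp, the smallest length the values allow, and on 2741 fragments. The members had a median length of 1248 bp, with the middle 50% between 869 and 2196 bp, whereas the 5826 other genes at 10 FPKM or more in Y30M with a readable length had a median of 1842 bp.

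Symbols could be paired with 7 of the 115 members, and all 7 are described. A symbol was at hand for 2147 of all genes (10.2%). By name or known role, *DNAI3* is an intermediate chain of the dynein family, *CFAP95* a cilia and flagella associated protein, *CYLC2* a cylicin of the calyx of the sperm head, *TEX49* a testis expressed gene and *SPATA31A6* a member of the spermatogenesis associated 31 family. *HEMGN* encodes hemogen, a nuclear protein best known from blood-forming cells. *MROH7* belongs to the maestro heat-like repeat family.

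*MROH7* had the highest mean of the 7, at 90.1 ± 59.3 FPKM (SD, n = 3) in Y30M, which was place 15 among the 115. Its values were 0.0484, 0.0426 and 0.00734 FPKM in Y6M replicates 1, 2 and 3, and in Y30M they were 51.3, 158 and 60.7 FPKM. Replicate 2 stood well above the other Y30M libraries, which lay close together, and no Y6M value came near them. The 17 fragments in Y6M against 51482 in Y30M gave a ratio of 2623 per unit of depth, with an exact 95% counting interval of 1638 to 4502.

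In the Y6M libraries *CFAP95* was at 0.0975, 0.0429 and 0 FPKM, and in those of Y30M at 55.9, 82.8 and 109 FPKM, a mean of 82.7 ± 26.7 FPKM (SD, n = 3). Its first Y6M value was the second highest of any member in any Y6M library, but it stood for 2 fragments. Replicate 1 was the lowest and replicate 3 the highest Y30M library, each well apart from the next.

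*HEMGN* had 0.0898, 0.0396 and 0.0181 FPKM in the juvenile yaks, whereas the mature yaks had 23.5, 81.9 and 129 FPKM (mean 78.1 ± 52.8 FPKM, SD, n = 3). Y30M replicate 3 was again the highest library and stood at 5.49 times replicate 1, the lowest. *CYLC2* had its Y30M libraries in the same order, at 17.4, 46.8 and 74.3 FPKM in Y30M (mean 46.2 ± 28.5 FPKM, SD, n = 3), with 0, 0.0883 and 0 FPKM in Y6M. Here 3 fragments, all in Y6M replicate 2, made up the juvenile signal.

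*TEX49* was the only one of the 7 without a fragment in any Y6M library. It stood at 28.9, 96.1 and 50.5 FPKM in Y30M replicates 1, 2 and 3 (mean 58.5 ± 34.3 FPKM, SD, n = 3). Against a floor of 3 fragments over the Y6M group it was at least 1655-fold higher in Y30M.

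The 2 lowest of the 7 differed in their spread. *DNAI3* stood in Y6M at 0.0290, 0.0511 and 0.0937 FPKM, against 12.1, 10.9 and 38.8 FPKM in Y30M, so that replicate 3 was the highest library at both ages. Its ratio of 373 (exact 95% counting interval 233 to 640) was the lowest of the 7. *SPATA31A6* went from 0, 0.0324 and 0 FPKM in the Y6M replicates to 19.7, 24.1 and 16.5 FPKM in the Y30M replicates, with the smallest coefficient of variation (SD over mean) of the 7, at 19.1%. The study left out reads that aligned to several places, so fragments shared with any near-identical copy of its family may be missing from these values.

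**Figure D2:**
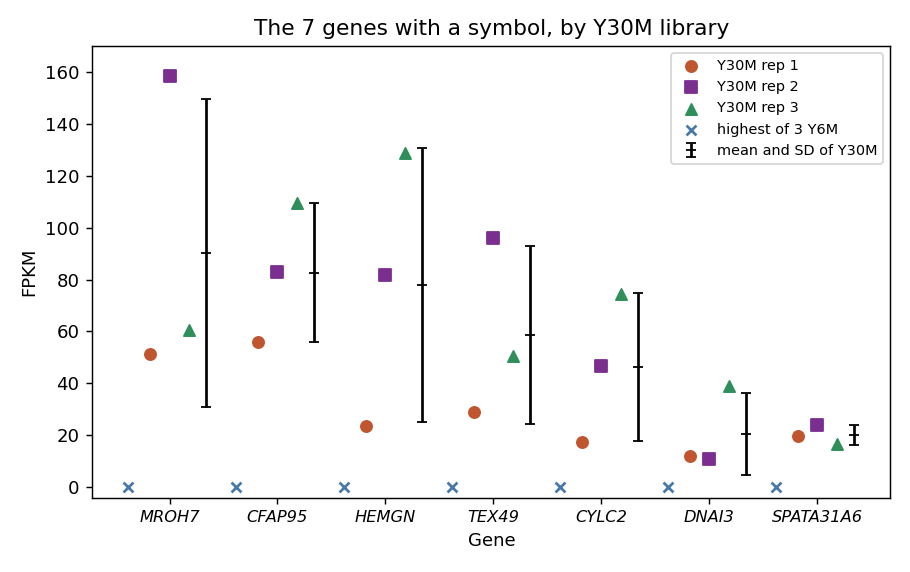
FPKM of the 7 members with a symbol in each Y30M library (filled symbols), with the Y30M mean and SD (n = 3, black) and the highest of the 3 Y6M values (crosses). Replicate 1 is the lowest Y30M library for 5 of the 7 genes, from *CFAP95* at 55.9 FPKM to *CYLC2* at 17.4 FPKM.

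Just inside the limits, the 3 named members with the highest Y6M values were *CFAP95*, *DNAI3* and *HEMGN*, and those with the lowest Y30M minimum were *DNAI3* at 10.9 FPKM, *SPATA31A6* at 16.5 FPKM and *CYLC2* at 17.4 FPKM. Just outside, *SPATC1L*, *CHGB* (chromogranin B of secretory granules) and *ACSBG2* (an acyl-CoA synthetase) met the Y30M minimum but had highest Y6M values of 0.125, 0.128 and 0.136 FPKM. *RIBC2*, *PCDHB1* (a protocadherin) and *CSNKA2IP* met the Y6M limit but had lowest Y30M values of 9.67, 9.15 and 8.98 FPKM. *CSNKA2IP* was at 0 FPKM in all 3 Y6M libraries and at 26.6 and 32.5 FPKM in Y30M replicates 2 and 3. The limits therefore cut through a continuous range of levels.

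The members also varied among the mature animals. The coefficient of variation over the Y30M libraries had a median of 44.2% in the members, from 9.03 to 89.6%, against 27.6% in the 6158 other genes with at least 10 FPKM in all Y30M libraries. The highest Y30M library was 2.43 times the lowest for the median member and 1.70 times for the median other gene, and 33 members spanned 3 times or more. These medians are a description, because the lower limit of 10 FPKM acts on the same values.

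Much of that spread had one direction. Y30M replicate 1 was the lowest Y30M library for 82 members (71.3%) and the highest for 6 (5.22%), whereas among the other 6158 genes it was the lowest for 1340 (21.8%) and the highest for 2459 (39.9%). Replicate 2 was the highest for 64 members and replicate 3 for 45. The order 2, 3, 1 from high to low, shown by *TEX49* and *MROH7*, held for 45 members (39.1%), and the order 3, 2, 1 of *CFAP95*, *CYLC2* and *HEMGN* for 37 (32.2%). Those orders were found for 10.0% and 11.7% of the other genes. The order of *DNAI3*, highest in replicate 3 and lowest in replicate 2, was that of 8 members (6.96%), itself included, and of 22.5% of the other genes. The shares move with the scaling. When libraries were scaled by median-of-ratios factors, replicate 1 was the lowest for 88 members and for 34.2% of the other genes, and the highest for 5 members and for 23.3%, so that among the other genes lowest became the commoner of both. Replicate 2 was then the highest for 86 members and 50.2% of the other genes, and replicate 3 for 24 members and 26.6%.

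On the log2 scale the ratio of replicate 2 to replicate 1 had a median of 0.92 in the members and -0.21 in the other genes. The ratio of replicate 3 to replicate 1 had medians of 0.57 and -0.10. Replicate 2 was above replicate 1 for 101 of 115 members and replicate 3 was above it for 90. The median of the other genes moved to 0.24 for replicate 2 over replicate 1 when each library was scaled by a median-of-ratios factor, and that of the members to 1.37. The gap of 1.13 between them cannot change with such scaling, because a factor per library shifts the log2 ratios of all genes by the same amount. Each animal is 1 library, so the differences between animals have no replicate. The libraries numbered 3 deviated from their group means in a similar way at both ages (r = 0.60 across genes, which are not independent), and their part in the spread of the members was not tested.

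Among all genes with at least 10 FPKM in Y30M, the ratio changed with their level in Y6M and, on the FPKM scale, turned negative at high levels. The median log2 ratio of replicate 2 to replicate 1 was 0.94 in the 201 genes with a mean Y6M level below 0.1 FPKM, 0.77 in the next group up to 0.3 FPKM, 0.50 up to 1 FPKM and 0.36 up to 3 FPKM. It was 0.10 between 3 and 10 FPKM, -0.23 between 10 and 30 FPKM and -0.46 in the 2400 genes at 30 FPKM or more. The members thus lie at one end of a gradient that other genes share. With median-of-ratios scaling all these medians shift by the same amount, and their order stays.

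**Figure D3:**
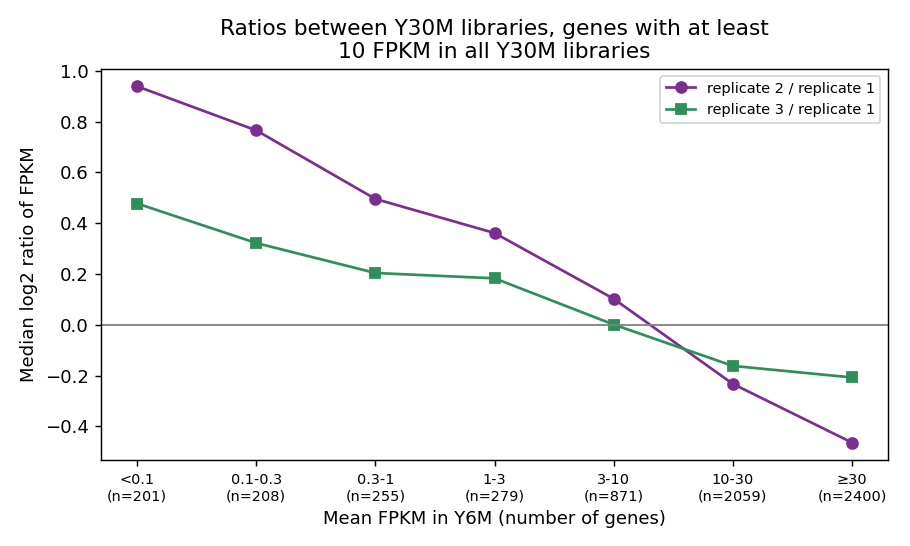
Median log2 ratio of FPKM between Y30M libraries (circles, replicate 2 over replicate 1; squares, replicate 3 over replicate 1), for genes with at least 10 FPKM in all Y30M libraries, grouped by their mean FPKM in Y6M. Both ratios decline from the group that holds the members (0.94 and 0.48) to genes at 30 FPKM or more in Y6M (-0.46 and -0.21).

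Lists of genes for the steps of sperm formation were compared next. None of the 7 named members was in these lists by symbol, so the counts are of other genes around the members. Of 213 listed genes, 29 had a symbol here, and 27 of these rose in Y30M by limma, with 0.05 as the limit on the unadjusted p and 1.5 as the lowest fold change called. Over all 19477 genes tested, 27.3% were called higher, a call that all 115 members also met because the rule fixed it. Among the 2144 tested genes with a symbol the share was 33.0%, and since symbols came partly from the study's tables of changed genes, the count on the lists is not independent evidence of a direction. The median log2 fold change of the 29 was 3.54, beside 0.04 over all genes tested. The members, with their Y30M level far above the pseudocount of 1, had a median of 5.28.

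The listed genes were higher in Y30M in each of the spermatid lists. For the acrosome, *ACRBP* (which binds the zymogen of acrosin) averaged 3.52 ± 1.06 FPKM in the Y6M libraries and 189 ± 66.0 FPKM in the Y30M libraries (SD, n = 3), and *PKDREJ* (a sperm membrane protein) at 0.257 ± 0.0829 and 13.8 ± 2.10 FPKM. For the flagellum, 6 of 6 rose, led by *KIF17* (a kinesin) from 1.84 ± 0.798 to 713 ± 402 FPKM. For sperm energy metabolism, 5 of 5 rose. *OXCT2*, an enzyme of ketone body use found in testis, went from 0.230 ± 0.101 to 220 ± 162 FPKM, and *PDHA2*, the testis form of a pyruvate dehydrogenase subunit, from 0.109 ± 0.0949 to 119 ± 28.7 FPKM. *PDHA2* missed the rule narrowly, with Y6M values of 0.174, 0.153 and 0 FPKM.

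Of the ion channel and motility signalling list, 4 of 4 rose, and *SLC9C1*, the sodium-proton exchanger of sperm, was at 0, 0 and 0.0239 FPKM in Y6M but at 4.71, 3.65 and 14.5 FPKM in Y30M, of which replicates 1 and 2 were below the minimum of the rule. The 6 regulators with a symbol all rose, among them *GSG1* (germ cell associated) from 0.861 ± 0.253 to 768 ± 392 FPKM and *RFX2*, a transcription factor of spermatids, from 0.319 ± 0.106 to 72.9 ± 16.5 FPKM. *CAMK4*, the only one with a symbol on the list of chromatin condensation, rose from 0.721 ± 0.271 to 16.0 ± 3.50 FPKM. All of these had a limma adjusted p between 4.81e-05 and 0.00528.

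The 5 meiosis genes with a symbol were a mixed group. *HORMAD1*, a protein of the meiotic chromosome axis, stood in Y6M at 6.56, 11.2 and 22.7 FPKM, against 10.4, 6.06 and 36.6 FPKM in Y30M, so that the groups overlapped (limma log2 fold change 0.16, SE 0.74, adjusted p = 0.910). *MLH3*, a mismatch repair protein of crossovers, was not called either (limma log2 fold change 0.79, SE 0.38, unadjusted p = 0.0878, adjusted p = 0.159). It was called with the replicate number as a block (limma unadjusted p = 0.0202), on the TPM scale (0.0425) and without Y30M replicate 2 (0.0296). *SYCP3*, of the same axis, rose from 3.05 ± 1.93 to 18.1 ± 12.3 FPKM, the cohesin subunit *SMC1B* from 0.739 ± 0.161 to 22.3 ± 13.9 FPKM, and *TOPAZ1*, at 0.155 ± 0.0771 FPKM in the juvenile yaks, had 2.38 ± 1.65 FPKM in the mature yaks. On the FPKM scale all 5 were highest in Y30M replicate 3 and lowest in replicate 2, an order found for 8 of the 115 members (6.96%) and for 22.5% of the other 6158 genes. Of the 24 listed genes outside meiosis, 15 were highest in replicate 2, as were 64 of the 115 members (55.7%) and 25.9% of the other genes. Lowest in replicate 1 were 11 of these 24, beside 82 of the 115 members (71.3%) and 21.8% of the other genes.

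Markers of somatic cells moved the other way. Of 38 listed markers, 10 of them for spermatogonia, 6 had a symbol. All 6 were of somatic cells and were called lower in Y30M, beside 19.0% of all genes tested and 26.5% of those with a symbol. The summed level of the 3 Sertoli cell markers (*SOX9*, *FSHR* and *DHH*, of 9 listed) lay between 108 and 125 FPKM in the juvenile and between 25.7 and 45.3 FPKM in the mature yaks. *LHCGR*, the luteinizing hormone receptor of Leydig cells and the only one of 7 with a symbol, lay between 34.4 and 67.3 FPKM in the juvenile yaks and between 1.44 and 5.37 FPKM in the mature yaks, and the 2 endothelial markers (*PECAM1* and *CDH5*, of 4) fell from 14.8 to 22.0 FPKM to 3.69 to 6.95 FPKM in sum. In tissue sections, the study reported densely grouped interstitial cells, in higher number, after sexual maturity. The level of *LHCGR* does not measure the number of Leydig cells. On the FPKM scale the Sertoli and endothelial sums were, among the Y30M libraries, lowest in replicate 2 and highest in replicate 1. In Y30M replicate 1, *SOX9* made up 28.3 of the 45.3 FPKM of the Sertoli sum. *FSHR* and *LHCGR* were also lowest in replicate 2 but highest in replicate 3, at 9.45 and 5.37 FPKM. Of the 15372 genes above 0 in all libraries, 7949 were lowest in Y30M replicate 2 and 6308 highest in replicate 1. Neither place was therefore particular to the markers. None of these markers was at 0 in any library. No symbol was at hand for the markers of spermatogonia, peritubular cells and macrophages, and the part of cell makeup in the members' levels was not tested.

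m6A was read from the table of compared peaks, regions in which antibody-precipitated reads exceeded input reads over the animals of both ages together. Of the 115 members, 1 (0.870%) had a peak in that table, against 41.2% of all 20953 genes and 55.8% of the 6158 other genes with at least 10 FPKM in all Y30M libraries. Among the other genes within the middle 50% of the members' lengths the share was 52.7%, and within the middle 50% of their Y30M levels it was 58.4%. The 1 member was ENSBGRG00000016211, which the juvenile libraries held at 0.0454, 0.020 and 0.0275 FPKM and the mature libraries at 11.0, 27.6 and 15.0 FPKM, the lowest level again in Y30M replicate 1. Its peak lay on chromosome 19 of LU_Bosgru_v3.0, at 25193243 to 25193743, in 3 exon blocks with 298 bp in all. The fold enrichment over input was 3.06, above the median of 2.31 over the 16318 peaks, but the FDR of this enrichment was 1. No member therefore had a peak at an FDR of at most 0.05, a level met by 69.0% of the peaks.

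The share of genes with a compared peak varied with the Y6M level. Among genes with at least 10 FPKM in all Y30M libraries, the share with a compared peak was 0.498% below 0.1 FPKM in Y6M, 8.65% between 0.1 and 0.3 FPKM, 17.6% up to 1 FPKM and 33.7% up to 3 FPKM. It was 63.6% between 3 and 10 FPKM, 70.6% between 10 and 30 FPKM and 53.0% above. The median Y30M level of the first group, 45.3 FPKM, was above the 28.3 FPKM of the group with 70.6%. Among genes with at least 10 FPKM in all Y6M libraries, the share varied with the Y30M level in a similar way. It was 0 of 5 genes between 0.1 and 0.3 FPKM in Y30M, 30.8% up to 1 FPKM and 52.9% up to 3 FPKM. Higher up it was 66.5% between 3 and 10 FPKM, 71.3% between 10 and 30 FPKM and 54.5% above. The part of the levels in these shares was not tested.

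**Figure D4:**
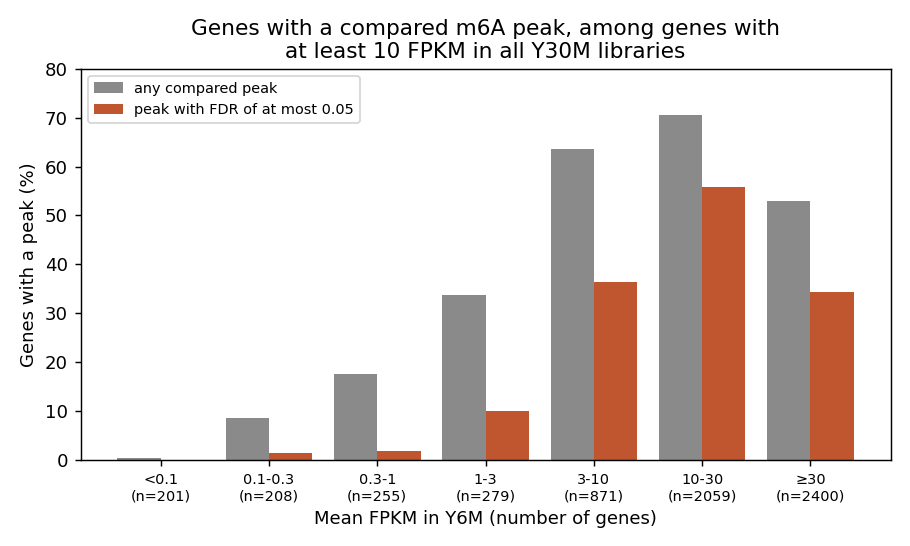
Share of genes with a peak in the table of compared peaks (grey) and with a peak at an enrichment FDR of at most 0.05 (orange), among genes with at least 10 FPKM in all Y30M libraries, grouped by their mean FPKM in Y6M. The share is 0.498% (1 of 201 genes) in the group that holds the members and 70.6% between 10 and 30 FPKM.

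The absence of a compared peak does not show that a transcript lacks m6A in mature testis. Peaks had also been called in each age group on its own, and the Y30M list at hand covered chromosomes 1 and 2. There, 275 of 1284 Y30M peaks (21.4%) overlapped no compared peak, as did 230 of 1289 Y6M peaks (17.8%). For 140 genes with a Y30M peak that could be tied to a gene, the Y30M peaks of 14 of the 26 genes with a mean Y6M level below 1 FPKM (53.8%) overlapped no compared peak. At 1 FPKM or more it was 15 of 114 genes (13.2%). These shares are given as counts, and their difference was not tested. The study's own annotation of the Y30M peaks, held here in part, places peaks on *CFAP95*, *SPATA31A6*, *CYLC2* and *HEMGN*. Within the bounds of these 4 genes there were 0 Y6M peaks and 0 compared peaks. Symbols came partly from the study's peak annotations, so a member can have a symbol because it has a peak. These 4 genes therefore do not measure how many members have a Y30M peak.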

How the data were processed

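Per the labels and the study's methods, reads were trimmed with Trimmomatic, cleared of ribosomal RNA with SortMeRNA and aligned with HISAT2 to LU_Bosgru_v3.0. The tool behind the expression values is not given in the sources used here. The authors deposited FPKM per gene for the 6 input libraries. They also deposited a MeTDiff table of compared peaks, called over the replicates of both ages, with position, exon blocks, a fold enrichment ratio of IP over input, its p-value, and score columns holding the log10 of p and FDR. The lists of peaks per age that the authors deposited hold a score for each adenosine, which was not used. Columns of the authors' comparison of ages (log2 fold change, p and FDR) were not used.

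The members and gene lists were chosen with earlier results of these data known. Symbols came from the study's supplementary tables of changed genes, changed peaks and peaks per age, which are held in part, and served as a key only. The genes named were members with a symbol (highest mean, largest and smallest variation, nearest to each limit), the genes just outside each limit, and up to 4 other genes per list by size of change. The IDs of 2 members without a symbol were added after their values were seen. Peaks were matched to genes by the gene name in the table.

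Whole fragments were recovered for 98.3% of genes above 0 (within 0.02 fragments), as the smallest numbers the FPKM values allow. They gave 14.8 to 28.7 M fragments on genes per input library. Expression was tested with limma 3.58.1 (R 4.3.3) on log2(FPKM + 1) over 19477 genes above 0 in at least 1 library, with Benjamini-Hochberg adjustment. Fold changes on this scale understate those of low genes. The fit was tested on simulated data with equal spread for all genes and changes set only in genes above a minimum mean level. That test does not cover genes near 0 FPKM or genes of unequal spread. Replicates are separate yaks, so p-values measure the spread between 3 animals of each age. Deviations from the group mean correlated at 0.21, 0.28 and 0.60 between libraries with the same number. Those numbered 1 and 2 correlated as much across numbers (0.32 and 0.25), so pair 3 alone stood out. The main fit had no block for the replicate number, which was an alternative. Summaries used Python 3.11.15, pandas 2.3.3 and scipy 1.17.1.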

Additional observations from a re-analysis of the deposited data

How the results depend on the processing

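The number of members moves with the limits that define it. A Y6M limit of 0.2, 0.05 or exactly 0 FPKM gave 212, 54 and 16 genes, and a Y30M minimum of 5 or 20 FPKM gave 173 and 67. Leaving out 1 library, which can only keep or add genes, gave 118 to 188 genes, the most without Y6M replicate 1. On the TPM scale the rule gave 99 genes, of which 76 were among the 115. With peaks at an FDR of at most 0.05, 0 members had a peak in place of 1, and with a fold enrichment of at least 2 the count stayed at 1. Matching members to the peak lists of each age was not run as a count, because positions of most members were not used here. With the replicate block (replicate number as a pairing term) 28 of 29 listed genes were called higher in place of 27, and the gene gained was *MLH3*. Over the other alternatives the count was 27 or 28, and it was 27 to 28 when 1 library was left out. *HORMAD1*, which was not called, turned to a log2 fold change of -0.23 without Y6M replicate 1 and -0.53 without Y30M replicate 3, the lowest of its values with 1 library left out, of which the highest was 0.67. Y30M replicate 1 was the lowest Y30M library for 81 members with TPM and for 88 with the median-of-ratios factor, and for 71.1% and 71.6% of the genes selected with a Y30M minimum of 5 or 20 FPKM. These scalings and limits were chosen after seeing the data. Depth limits the Y6M side, where a member rests on a median of 3 fragments over 3 libraries.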
